A study of Mus musculus with 4 samples.

Results

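Oxidative phosphorylation genes, which encode the subunits of respiratory chain complexes I to IV and of ATP synthase (complex V), were followed in mouse colon. They were taken by name from the array's own annotation: all names that begin with Nduf followed by a, b, c, s or v, with Uqcr, with Cox4 to Cox8 or with Atp5, together with *Sdha*, *Sdhb*, *Sdhc* and *Sdhd*. Of 93 such genes on the array, 91 gave a signal well above background on at least 1 array and were kept, out of 22708 genes kept by the same steps and 30214 gene names in all. All 91 were in fact well above background on all 4 arrays, so that no ratio among them is a bound. The remaining 2 genes, the testis subunits *Cox7b2* and *Cox8c*, had signals of 2.34 to 4.66 and were left out. By known function, 79 of the 91 encode structural subunits and 12 encode assembly factors or other proteins that the names take in, such as the complex I assembly factors of the Ndufaf series.

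The study asked how deletion of *Pla2g3*, which encodes a secreted phospholipase A2 (sPLA2-III), alters colon carcinogenesis by azoxymethane (AOM), a DNA-alkylating carcinogen. Each of the 4 groups was a single pool of colon RNA from 3 to 5 mice, hybridized to a single-color array from 27.7 ng of RNA. This number of mice is that of the labels, and the study's figure legend gives a single number within that range. All animals were male, 42 weeks old and of the B6.129 (n3) background, a mixed strain after 3 generations of backcrossing, and were either *Pla2g3*+/+ or *Pla2g3*-/-. They received saline as vehicle or 10 mg/kg AOM intraperitoneally, once weekly for 6 weeks, and the colon was removed 28 weeks after the last injection. The samples from AOM-treated animals carry the label of colorectal cancer tissue, and the study's figure legend names whole descending colon, so that mucosa, muscle layer and any tumor entered the same extract. With 1 array per group the differences have no replicate check, no p-value is given, and a difference past 2-fold is only counted.

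Electrons from NADH and succinate enter the chain at complexes I and II, pass through complex III to cytochrome *c* oxidase (complex IV) and reduce oxygen, and the proton gradient built on the way drives ATP synthase. Most subunits are encoded in the nucleus and expressed in all tissues, but complex IV has subunits for which muscle, lung or testis uses an isoform of its own. Colonocytes depend on this machinery to oxidize butyrate from the lumen, and heart and skeletal muscle are especially rich in it.

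The targeted gene was examined first. The brightest of 3 *Pla2g3* probes had signals of 343 in *Pla2g3*+/+ vehicle, 426 in *Pla2g3*-/- vehicle, 304 in *Pla2g3*+/+ AOM and 1632 in *Pla2g3*-/- AOM, and after scaling the pool labeled *Pla2g3*-/- was 1.23-fold higher with vehicle and 6.01-fold higher following AOM treatment. The other probes were higher in the pools labeled *Pla2g3*-/- as well. Signal of *Pla2g3* was thus not lower in the knockout pools on any probe, which goes against the labels unless the probes lie outside the deleted part, and whether they do is not given in the sources used here. Every genotype below is therefore the genotype on the label, and every direction follows the labels.

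Across the whole array, 64.8% to 69.4% of the spots were well above background and none was saturated. The 75th percentile of the array, by which signals were scaled, was 645.6 and 649.8 with vehicle and 1309 and 1169 after AOM for *Pla2g3*+/+ and *Pla2g3*-/-. Both AOM arrays stood apart in tissue markers, though not in the same ones. All 10 of 10 smooth muscle genes were lower on the *Pla2g3*+/+ AOM array than with vehicle. Their summed level, in multiples of the 75th percentile, was 31.7 there against 502.4 to 548.0 on the other arrays. *Tagln* and *Cnn1*, both smooth muscle genes, had signals of 15155 and 1670 there against at least 125378 and 70554 elsewhere. Colonocyte markers, of which 13 were kept, summed to 80.4 there against 440.6 on the *Pla2g3*-/- AOM array and 733.2 and 772.5 with vehicle, and goblet cell markers (9) to 192.3 against 677.1, 1762.3 and 1666.0. Wnt targets of colon tumors (13) summed to 74.0 there and to 9.4 to 10.6 elsewhere. On the *Pla2g3*-/- AOM array, B and plasma cell markers (8) summed to 23.3 against 60.4 to 104.7 elsewhere. T cell markers (7) summed to 2.13 on that array against 4.36 to 6.35 elsewhere. In the *Pla2g3*-/- vehicle pool, 10 of 12 pancreatic acinar genes were over 2-fold higher than in the *Pla2g3*+/+ vehicle pool, against 2.23% of all genes. The acinar genes summed to 71.2 against 32.3. Adipocyte markers (7) summed to 38.8 against 18.6 with vehicle, and to 5.58 against 2.28 after AOM. The part of these differences in the results on respiratory genes was not tested.

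Sequences upstream of 6 members are printed before the values, because the pair of members with the highest genotype ratios after AOM are muscle isoforms of complex IV and can be read beside their ubiquitous partners. Promoter windows of RefSeq genes (GRCm38.p6, mouse) were available for 75 of the 91 members, as 81 windows from 250 bases before to 50 bases after the start. The first set pairs *Cox8b* and *Cox7a1*, the muscle isoforms of cytochrome *c* oxidase subunits 8 and 7a, with their ubiquitous partners *Cox8a* and *Cox7a2*. Shown are the 250 bases before the start, 5′ to 3′ on the strand of the gene, with each CG dinucleotide in capitals. They lie at chr7:140900447-140900696 (minus strand) for *Cox8b*, chr19:7217617-7217866 (minus) for *Cox8a*, chr7:30183921-30184170 (plus) for *Cox7a1* and chr9:79759854-79760103 (minus) for *Cox7a2*.
Cox8b: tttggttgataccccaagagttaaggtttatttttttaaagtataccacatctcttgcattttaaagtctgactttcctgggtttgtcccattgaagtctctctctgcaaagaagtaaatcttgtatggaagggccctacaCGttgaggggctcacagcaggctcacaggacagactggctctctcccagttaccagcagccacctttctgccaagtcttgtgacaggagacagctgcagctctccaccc
Cox8a: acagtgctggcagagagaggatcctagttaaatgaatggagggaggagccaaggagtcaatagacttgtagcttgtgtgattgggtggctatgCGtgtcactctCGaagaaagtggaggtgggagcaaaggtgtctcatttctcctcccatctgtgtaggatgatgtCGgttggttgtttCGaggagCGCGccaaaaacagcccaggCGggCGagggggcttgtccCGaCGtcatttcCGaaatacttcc
Cox7a1: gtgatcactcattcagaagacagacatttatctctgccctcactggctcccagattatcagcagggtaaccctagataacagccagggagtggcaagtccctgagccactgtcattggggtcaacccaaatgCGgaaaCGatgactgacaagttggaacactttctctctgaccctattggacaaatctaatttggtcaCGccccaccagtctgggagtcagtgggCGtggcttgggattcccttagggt
Cox7a2: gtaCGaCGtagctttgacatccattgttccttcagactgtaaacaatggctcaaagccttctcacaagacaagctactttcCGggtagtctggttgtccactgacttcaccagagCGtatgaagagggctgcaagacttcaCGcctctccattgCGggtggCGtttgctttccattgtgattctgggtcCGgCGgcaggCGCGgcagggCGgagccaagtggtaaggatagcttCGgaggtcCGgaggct
These stretches hold 1 CG in *Cox8b* against 11 in *Cox8a*, and 4 in *Cox7a1* against 14 in *Cox7a2*. Over the whole windows, the member median was 20 CG, with a range of 2 to 43, against 7 over all 32851 windows. *Cox8b*, with 2, was the lowest of the member windows and *Cox7a1*, with 7, was among the lowest, whereas *Cox8a* had 19 and *Cox7a2* 20. Low CG content was not confined to the muscle isoforms, since the window of *Cox7b*, a ubiquitous subunit, held 5, and it was not shared by all tissue isoforms to the same degree, since that of *Cox6b2* held 10.

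The second set shows *Cox6a1*, the ubiquitous isoform of subunit 6a, and *Sdhb*, the iron-sulfur subunit of complex II, as examples of stretches with the NRF1 core. Motifs are in capitals on either strand: GCGCATGC (core of the site of nuclear respiratory factor 1, NRF1), CCGGAAG (core of the site of GABP, also called NRF2, and of other ETS factors) and GGGCGG (the GC box of Sp1). In *Cox6a1* the NRF1 core is present on both strands, and those matches overlap. The printed stretch of *Sdhb* holds the NRF1 core and the GC box but not the GABP or ETS core. The stretches lie at chr5:115348959-115349208 (minus) and chr4:140961021-140961270 (plus).
Cox6a1: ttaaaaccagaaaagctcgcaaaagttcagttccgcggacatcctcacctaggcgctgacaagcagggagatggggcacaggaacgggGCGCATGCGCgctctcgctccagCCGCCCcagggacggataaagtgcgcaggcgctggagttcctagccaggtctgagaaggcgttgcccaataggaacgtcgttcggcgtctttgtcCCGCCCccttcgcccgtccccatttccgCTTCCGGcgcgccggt
Sdhb: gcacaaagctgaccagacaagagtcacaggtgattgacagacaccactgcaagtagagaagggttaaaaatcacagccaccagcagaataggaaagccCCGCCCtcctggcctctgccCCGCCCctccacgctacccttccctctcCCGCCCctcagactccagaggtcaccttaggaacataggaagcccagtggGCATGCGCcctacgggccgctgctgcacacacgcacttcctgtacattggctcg
The NRF1 core was present in 12 of the 81 member windows (14.8%) and in 2.71% of all windows. The GABP or ETS core was present in 17 (21.0%) against 8.86%, and the YY1 core AAGATGGC in 12 (14.8%) against 2.75%. The GC box, found in 34 (42.0%) against 35.7%, and the E box CACGTG, in 9 (11.1%) against 7.15%, were closer to their share in all windows. At least 1 of the motifs was found in 60 of the member windows, and 21 held none of them. The stretches of *Cox8b*, *Cox8a* and *Cox7a1* as printed hold none. A match is a string of letters, not a bound site.

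With vehicle, the respiratory genes of the pools labeled *Pla2g3*-/- and *Pla2g3*+/+ were nearly level. No member was past 2-fold in either direction, against 2.23% of all genes higher and 1.55% lower. The median log2 ratio (*Pla2g3*-/- relative to *Pla2g3*+/+) was 0.09, with a range of -0.25 to 0.37, against -0.03 over all genes with a value. Above 0 lay 72 members, and 9148 of the 20478 genes with a value. Spots of the same probe on an array differed with a median SD of 0.063 on the log2 scale, averaged over the arrays, and a 95th percentile of 0.20 to 0.24. The median gives an error of 0.089 for a ratio of 2 arrays, and 48 members were higher and 5 lower by more than that error. The share of all genes past it was not counted. This error covers the spots only, and not the mice, the pools or the labeling. The medians of the roles were 0.09 for complex I core subunits and for complex III, 0.11 for complex I accessory subunits, complex IV and complex V, 0.16 for complex II and -0.01 for the assembly factors and other proteins. The highest ratios were those of *Cox6a2* (0.37), *Uqcr11*, the smallest subunit of complex III (0.35), *Ndufv1*, which carries the NADH site of complex I (0.33), *Cox8b* (0.32) and *Sdhb* (0.30). The lowest ratios were those of *Ndufaf7*, a methyltransferase of complex I assembly (-0.25), *Ndufa6*, an accessory subunit of complex I (-0.21), *Cox7a2l*, a supercomplex factor (-0.16), *Cox4i2*, the lung isoform of subunit 4 (-0.14), and *Ndufaf4*, an assembly factor (-0.11).

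Following AOM treatment, the same genes were lower than with vehicle in both genotypes. In the *Pla2g3*+/+ pools, 71 members were over 2-fold lower and none higher, against 23.0% of all genes lower and 14.7% higher, and the median log2 ratio (AOM relative to vehicle) was -1.55, a median decrease of 2.92-fold, against -0.23 over all genes. In the *Pla2g3*-/- pools, 58 members were over 2-fold lower and none higher, against 16.7% of all genes lower and 10.3% higher, and the median was -1.11, or 2.15-fold, against -0.13. Between the lists, 55 members were past 2-fold in both genotypes, 16 in *Pla2g3*+/+ and 3 in *Pla2g3*-/- alone. The same overlap was not counted over all genes, so that whether it is particular to the members is not known. In whole colon RNA, fewer cells of a type and less RNA per cell cannot be told apart.

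The size of this decrease depended on how the arrays were brought to a common scale. Before scaling, the median ratio of all genes showed brighter signals after AOM in both genotypes, whereas that of the members showed dimmer ones. Whether this accounts for the dependence on scaling was not tested. Without any scaling, the signal itself was lower after AOM for 71 members in *Pla2g3*+/+, 66 in *Pla2g3*-/- and 61 in both. Only 8 and 3 members were over 2-fold lower, against 6.76% and 4.40% of all genes, so that the share in *Pla2g3*-/- was below that of all genes. The members' medians were -0.53 and -0.26, while the median of all genes was 0.82 and 0.71. Under each scaling tried, the members' median minus that of all genes lay below 0, at -1.35 to -0.78 in *Pla2g3*+/+ and -0.98 to -0.52 in *Pla2g3*-/-. The members are bright genes, and 1258 other genes of like level had medians of -0.80 and -0.63, with 34.3% and 27.4% over 2-fold lower, so that part of the distance from all genes was shared with other bright genes. As a share of the summed signal of all genes on the same array, itself a form of scaling, the members made up 3.66% and 3.90% with vehicle in *Pla2g3*+/+ and *Pla2g3*-/-. After AOM the shares were 2.0% and 2.68%.

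**Figure D1:**
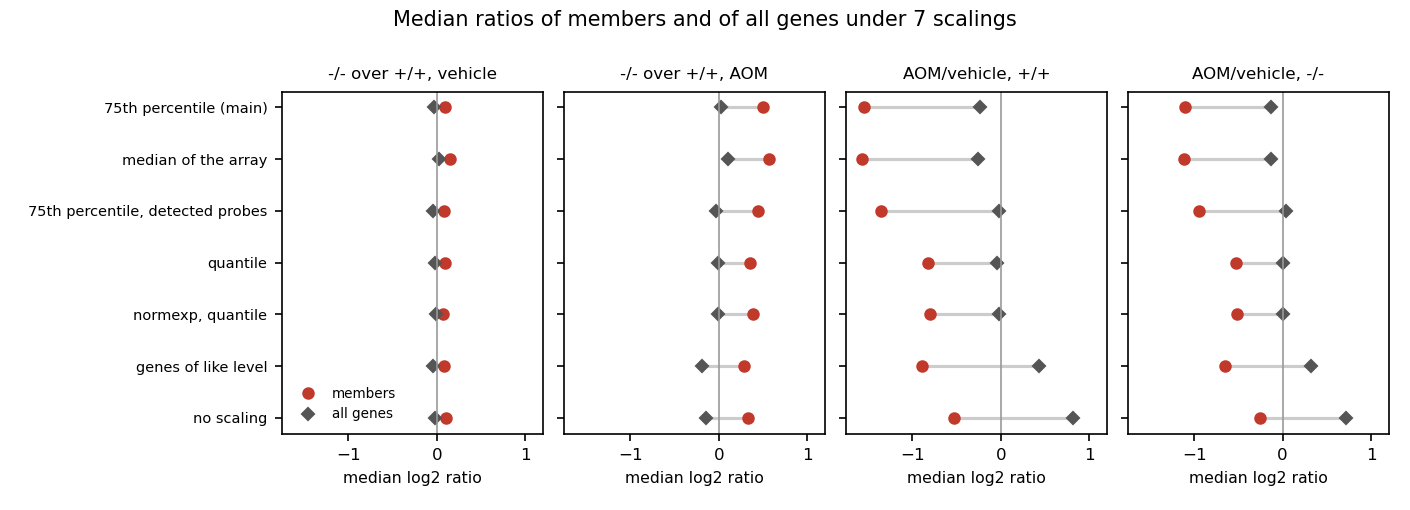
Median log2 ratio of the members and of all genes (horizontal axis) under each of 7 ways of bringing the arrays to a common scale (vertical axis), in 1 panel per comparison. The members' median lay above that of all genes after AOM in the genotype comparison (0.50 against 0.02 with the 75th percentile) and below it in both comparisons of AOM with vehicle, under every scaling drawn.

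Between the genotypes after AOM, the members as a body were higher in the pool labeled *Pla2g3*-/-, mostly by less than 2-fold. The median log2 ratio was 0.50, or 1.41-fold, against 0.02 over all genes and 0.06 over genes of like level. Above 0 lay 80 of 91 members, and 11062 of the 21574 genes with a value. Past 2-fold were 5 members higher and 1 lower, against 14.4% of all genes higher and 12.7% lower. At a threshold of 1.5-fold, 37 members were higher and 3 lower, against 23.5% and 21.0% of all genes, so that the members' share of higher calls was below that of all genes at 2-fold and above it at 1.5-fold. By more than the error of a ratio, 78 were higher and 8 lower. That count was not made for all genes, whose lower and upper quartiles were -0.46 and 0.54. Without scaling, 73 members were higher and their median was 0.33. The scaled level was lowest on the *Pla2g3*+/+ AOM array for 80 members and highest on the *Pla2g3*-/- vehicle array for 69, and for 77 it was lowest in *Pla2g3*+/+ AOM, next in *Pla2g3*-/- AOM and above these on both vehicle arrays. The comparisons share arrays, so that a low *Pla2g3*+/+ AOM array enters the genotype comparison after AOM and the AOM comparison in *Pla2g3*+/+ alike, and only the values are set side by side. That array is also the one with the low smooth muscle and colonocyte markers given above, and their part in the genotype difference was not tested.

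**Figure D2:**
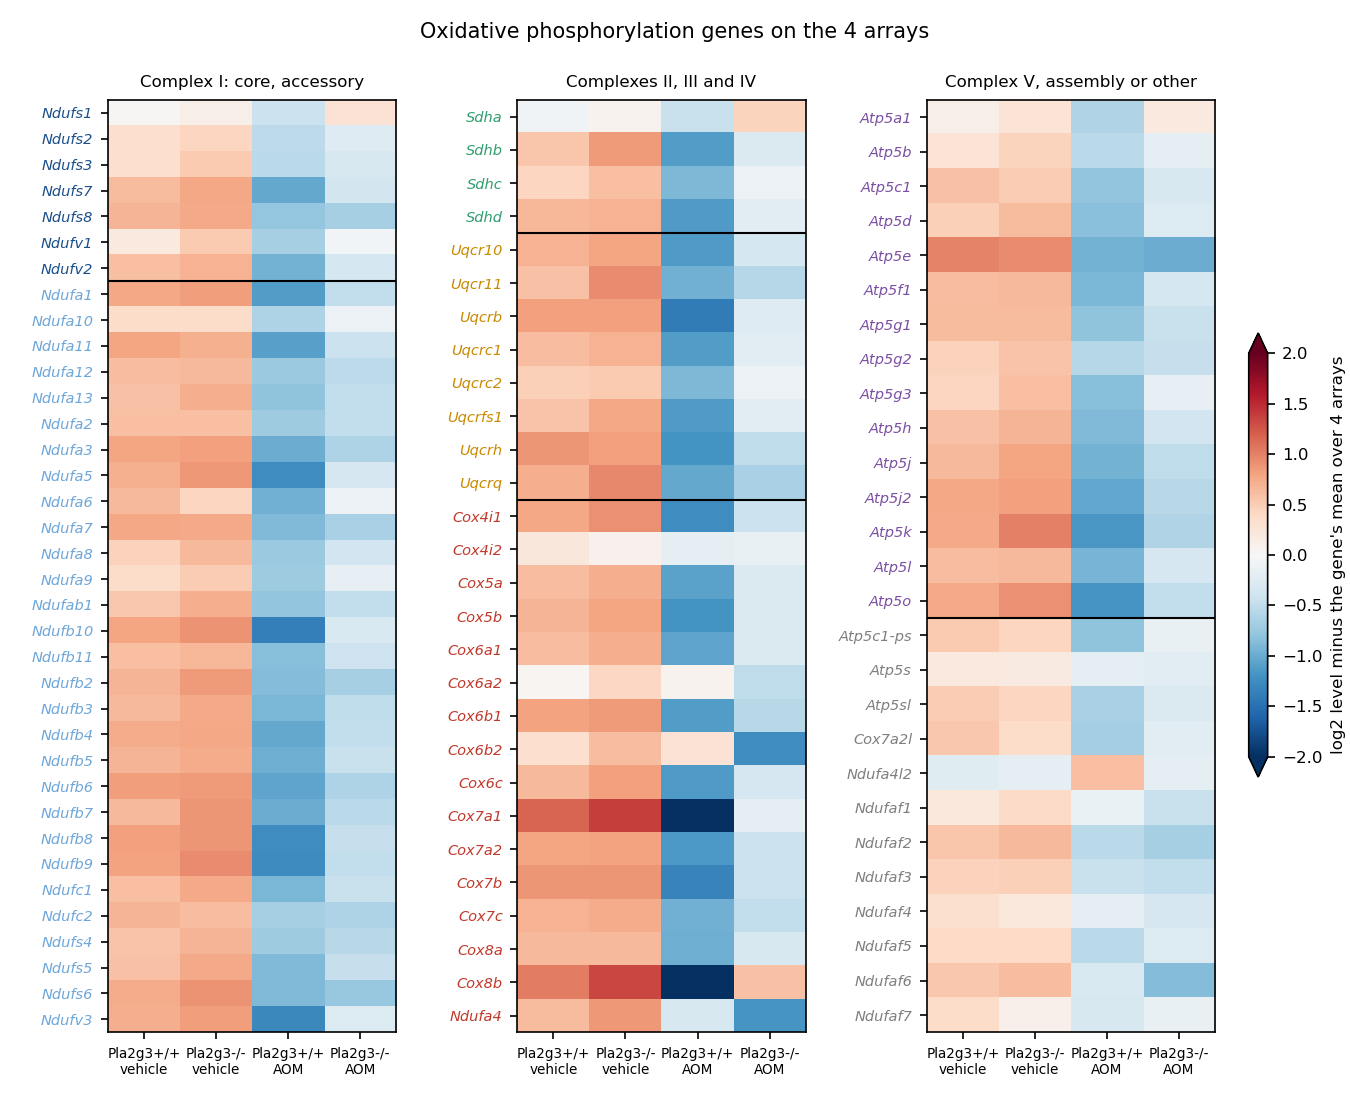
Log2 level of each member on each of the 4 arrays, as its distance from the gene's own mean over the arrays (color, limited to -2 to 2), with members in rows ordered by complex. Most rows are lowest on the *Pla2g3*+/+ AOM array (80 of 91) and next on the *Pla2g3*-/- AOM array.

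Complex I, the NADH dehydrogenase, was represented by 36 structural members. Among the 7 core subunits, which carry the electron path, the median AOM ratio was -0.87 in *Pla2g3*+/+ and -0.84 in *Pla2g3*-/-, with 3 past 2-fold in each. Among the 29 accessory subunits it was -1.60 and -1.23, with 28 and 26 past 2-fold. Of all genes, 23.0% and 16.7% were over 2-fold lower. These counts are for scaling by the 75th percentile, and *Ndufa13* and *Ndufs6* lost the call in both genotypes with quantile normalization. The genotype medians after AOM were 0.60 for core and 0.44 for accessory subunits, and all 36 lay above 0, though *Ndufs6*, *Ndufc2*, *Ndufs8* and *Ndufs4* lay below it without scaling. Levels are given from here on as log2 of the signal over the 75th percentile of its array, in the order *Pla2g3*+/+ vehicle, *Pla2g3*-/- vehicle, *Pla2g3*+/+ AOM, *Pla2g3*-/- AOM. *Ndufs1*, the largest core subunit, with iron-sulfur clusters, had levels of 3.61, 3.70, 3.16 and 3.88. It was the only core subunit above its vehicle level in *Pla2g3*-/- (log2 ratio 0.19) and below it in *Pla2g3*+/+ (-0.45), but without scaling, with quantile normalization and when centred on genes of like level it was above vehicle in both. *Ndufv2*, a core subunit of the NADH-oxidizing arm, had levels of 5.63, 5.73, 4.08 and 4.68, and was past 2-fold in *Pla2g3*+/+ (-1.55) and *Pla2g3*-/- (-1.05).

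The brightest accessory subunits were *Ndufa13*, also known as GRIM-19, with levels of 6.96, 7.11, 5.57 and 5.88, and *Ndufb9*, of the membrane arm, with 6.83, 6.98, 4.76 and 5.54. *Ndufb10*, another membrane arm subunit, had levels of 6.19, 6.30, 4.04 and 5.10 and was 2.08-fold higher in *Pla2g3*-/- than in *Pla2g3*+/+ after AOM. *Ndufv3*, a subunit next to the NADH site, had 6.29, 6.40, 4.27 and 5.30 and was 2.04-fold higher. Both sat just inside the 2-fold line, with *Uqcrfs1* (0.93) and *Ndufa5* (0.92) just outside it, and both lost the call without scaling, with quantile normalization and when centred on genes of like level. The probes of *Ndufv3* disagreed, with log2 ratios of 1.28 and -0.10 for the others. *Ndufs6*, the zinc-binding accessory subunit, showed no such genotype gap, with levels of 6.69, 6.85, 5.08 and 5.20. Its decrease after AOM was 3.06-fold in *Pla2g3*+/+ and 3.15-fold in *Pla2g3*-/-. *Ndufa6* was 1.16-fold lower in *Pla2g3*-/- with vehicle and 1.80-fold higher after AOM, with levels of 5.59, 5.38, 3.98 and 4.83.

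Complex II, which oxidizes succinate and also serves the TCA cycle, had the most even genotype ratios after AOM, between 0.78 and 0.90 for its 4 subunits. *Sdha*, the flavoprotein, had levels of 3.57, 3.72, 3.20 and 4.09. *Sdhb* had 6.12, 6.42, 4.44 and 5.27, and *Sdhd*, a membrane anchor, 5.66, 5.69, 3.87 and 4.77. *Sdhc*, the other anchor, had 3.83, 4.0, 2.51 and 3.29. *Sdha* stood out from its partners, being 1.29-fold lower after AOM in *Pla2g3*+/+ and 1.29-fold higher in *Pla2g3*-/-, whereas the others were 2.51-fold to 3.46-fold lower in *Pla2g3*+/+ and 1.64-fold to 2.21-fold lower in *Pla2g3*-/-. Without scaling, with quantile normalization and when centred on genes of like level, *Sdha* was higher after AOM in *Pla2g3*+/+ too.

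Complex III, which passes electrons from ubiquinol to cytochrome *c*, had 8 members. After AOM, all 8 were over 2-fold lower in *Pla2g3*+/+ (median -1.74) and 5 in *Pla2g3*-/- (median -1.11), against 23.0% and 16.7% of all genes. The genotype ratios of the complex after AOM ran from 0.38 to 1.15, with a median of 0.79. *Uqcrb*, the ubiquinone-binding subunit, had levels of 6.57, 6.57, 4.35 and 5.50 and was 2.21-fold higher in *Pla2g3*-/- after AOM. Its 3 probes agreed, at 1.15 to 1.23, but the ratio fell short of 2-fold without scaling (0.98) and when centred on genes of like level (0.94). *Uqcrh*, the hinge subunit, had 7.76, 7.69, 5.68 and 6.37, and *Uqcrq* had 7.03, 7.26, 5.27 and 5.65. *Uqcrq* lay at the other end of the complex, with a genotype ratio of 0.38.

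**Figure D3:**
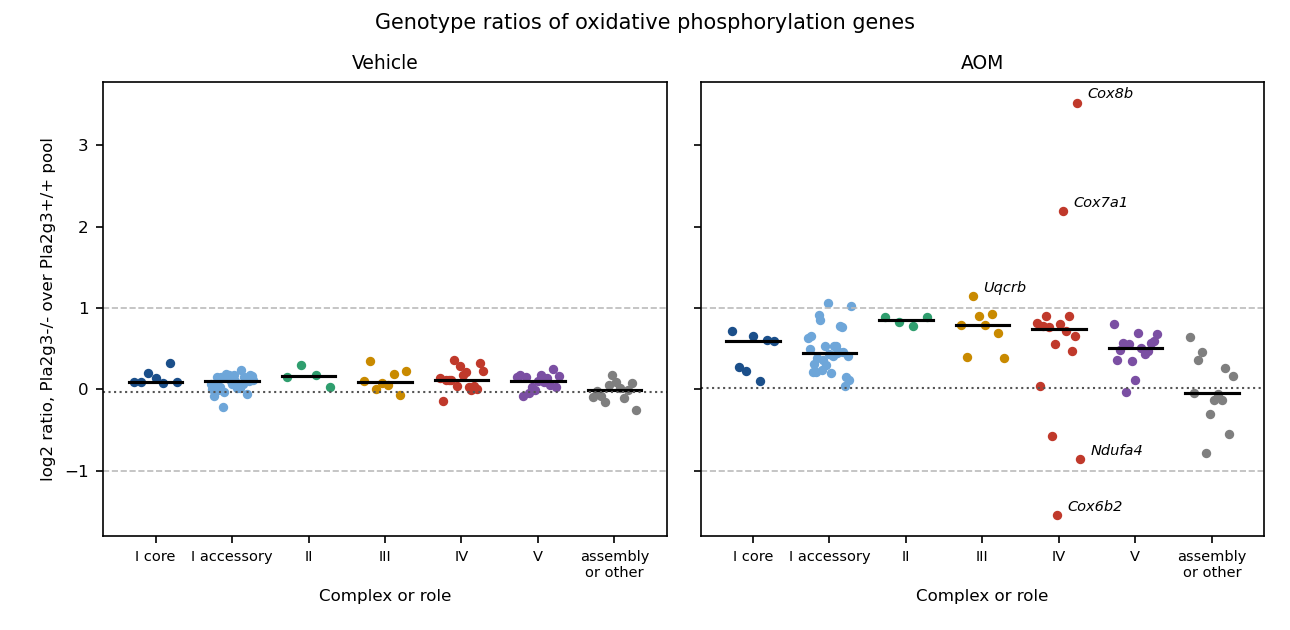
Log2 ratio of *Pla2g3*-/- to *Pla2g3*+/+ (vertical axis) of each member, grouped by complex and role, with vehicle and after AOM. Black bars are group medians, the dotted line is the median of all genes and dashed lines mark 2-fold. With vehicle all members lie between -0.25 and 0.37, and after AOM *Cox8b* (3.53), *Cox7a1* (2.19) and *Cox6b2* (-1.54) lie outside the band of the others.

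Complex IV, cytochrome *c* oxidase, had the widest range of ratios. Its 16 members had a median genotype ratio of 0.74 after AOM but a range of -1.54 to 3.53. Of these members, 12 were over 2-fold lower after AOM in each genotype, against 23.0% of all genes in *Pla2g3*+/+ and 16.7% in *Pla2g3*-/-. The brightest were ubiquitous subunits, *Cox6a1* with levels of 8.50, 8.61, 6.82 and 7.59, and *Cox8a* with 7.90, 7.91, 6.27 and 6.93. *Cox4i1*, the ubiquitous subunit 4, had 7.62, 7.76, 5.61 and 6.42, and *Cox7b* had 7.16, 7.15, 4.93 and 5.84. These 4 followed the general pattern, with genotype ratios after AOM of 0.66 to 0.91 and decreases after AOM of 3.08-fold to 4.69-fold in *Pla2g3*+/+ and 1.97-fold to 2.52-fold in *Pla2g3*-/-.

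*Cox8b*, the isoform of heart, skeletal muscle and brown fat, whose probe lies at chr7:148084852-148084911 (mm9), had levels of -1.11, -0.79, -5.08 and -1.55. The *Pla2g3*+/+ AOM array was far below the other arrays, 15.6-fold below its vehicle array and 3.53 on the log2 scale below *Pla2g3*-/- AOM, whereas the *Pla2g3*-/- AOM array was 1.69-fold below its own vehicle array, and slightly above it without scaling. *Cox8b* was a dim gene, with a signal of 38.8 on the *Pla2g3*+/+ AOM array, where the 75th percentile was 1309. *Cox7a1*, the isoform of heart and skeletal muscle, whose probe spans chr7:30970337-30970948 (mm9), had levels of 4.94, 5.15, 1.40 and 3.59. It was 11.6-fold lower after AOM in *Pla2g3*+/+ and 2.95-fold lower in *Pla2g3*-/-, and 4.57-fold higher in *Pla2g3*-/- than in *Pla2g3*+/+ after AOM. The genotype differences of both genes after AOM passed 2-fold under every alternative tried, but that of *Cox8b* was only 1.72 on the log2 scale with normexp background correction and quantile normalization. Set against the ubiquitous partner, the log2 genotype ratio after AOM was higher by 2.87 for *Cox8b* (over *Cox8a*) and by 1.47 for *Cox7a1* (over *Cox7a2*, with levels of 6.32, 6.35, 4.38 and 5.10). For the AOM ratio, the difference from the partner was -2.34 and -1.60 on the log2 scale in *Pla2g3*+/+, and 0.22 and -0.31 in *Pla2g3*-/-.

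Muscle marker lists also had low values on the *Pla2g3*+/+ AOM array. All 10 of 10 smooth muscle genes were over 2-fold higher in *Pla2g3*-/- than in *Pla2g3*+/+ after AOM (median log2 ratio 4.15), against 14.4% of all genes. All 10 were over 2-fold lower after AOM in *Pla2g3*+/+ (median -4.34), against 23.0% of all genes. In *Pla2g3*-/- the median AOM ratio of the smooth muscle genes was -0.10. Of 15 skeletal and cardiac muscle genes, 11 were kept. After AOM, 8 of the 10 with a value were over 2-fold higher in *Pla2g3*-/- (median 2.16), against 14.4% of all genes. Relative to vehicle, the median of this list after AOM was -1.74 in *Pla2g3*+/+ and 0.81 in *Pla2g3*-/-. In *Pla2g3*-/-, 5 of 10 were over 2-fold higher than with vehicle and 2 lower, against 10.3% and 16.7% of all genes. The summed level of the list was 5.5, 4.6, 3.0 and 8.0 in the array order above. *Ckm*, muscle creatine kinase, had signals of 288, 310, 3.46 and 448 and was not well above background on the *Pla2g3*+/+ AOM array, and *Mb*, myoglobin, was above background on the *Pla2g3*+/+ vehicle array alone. Of 5 brown adipocyte markers 3 were kept, with sums of 1.7, 1.2, 1.5 and 3.1, and *Ucp1*, the defining marker, was not above background on any array. Of the adipocyte markers with a value, 6 of 7 were over 2-fold lower after AOM in *Pla2g3*+/+ (median -3.47) and 6 of 6 in *Pla2g3*-/- (median -2.79). Of all genes, 23.0% and 16.7% were over 2-fold lower. The part of smooth muscle, skeletal muscle or fat in the values of *Cox8b* and *Cox7a1* was not tested.

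The remaining tissue isoforms did not follow *Cox8b* and *Cox7a1*. *Cox6b2*, the testis isoform of subunit 6b, whose probe lies at chr7:4703488-4703547 (mm9), had levels of -0.94, -0.65, -0.98 and -2.52. Only the *Pla2g3*-/- AOM array was low, 2.91-fold below *Pla2g3*+/+ AOM (log2 ratio -1.54, and -1.07 with normexp) and 3.66-fold below its vehicle array, while its partner *Cox6b1* (4.41, 4.46, 2.49, 3.05) was 1.47-fold higher in *Pla2g3*-/- after AOM. *Cox6a2*, like *Cox8b* an isoform of heart and skeletal muscle, had levels of -3.60, -3.23, -3.57 and -4.15, so that the *Pla2g3*+/+ arrays were level and *Pla2g3*-/- AOM was the lowest. *Cox4i2* had -2.23, -2.37, -2.64 and -2.61, with a genotype ratio of 0.04 after AOM that turned negative without scaling. These 3 genes, like *Cox8b*, were dim. The AOM ratio of these 3 in *Pla2g3*+/+ exceeded that of the partner by 1.60 to 1.88.

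*Ndufa4*, long listed under complex I and now known as a subunit of complex IV, ran against the rest of the complex. Its levels were 4.92, 5.16, 3.97 and 3.11, and the *Pla2g3*-/- AOM array was the lowest, 1.81-fold below *Pla2g3*+/+ AOM and 4.12-fold below its own vehicle array. The genotype difference passed 2-fold without scaling (-1.02), with quantile normalization (-1.09) and when centred on genes of like level (-1.06). *Ndufa4l2*, its hypoxia-induced paralog, had levels of -2.65, -2.60, -1.80 and -2.58. It was the only member clearly above vehicle in *Pla2g3*+/+ after AOM, by 1.80-fold, and was level in *Pla2g3*-/- (0.02). The genotype ratios of the pair after AOM were -0.85 and -0.78. Of 13 hypoxia response genes, 2 (15.4%) were over 2-fold higher and none lower in *Pla2g3*-/- after AOM, a share of higher calls near that of all genes (14.4%), with a median of 0.67, from *Ndrg1* (-0.80) to *Pdk1*, pyruvate dehydrogenase kinase (1.12).

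**Figure D4:**
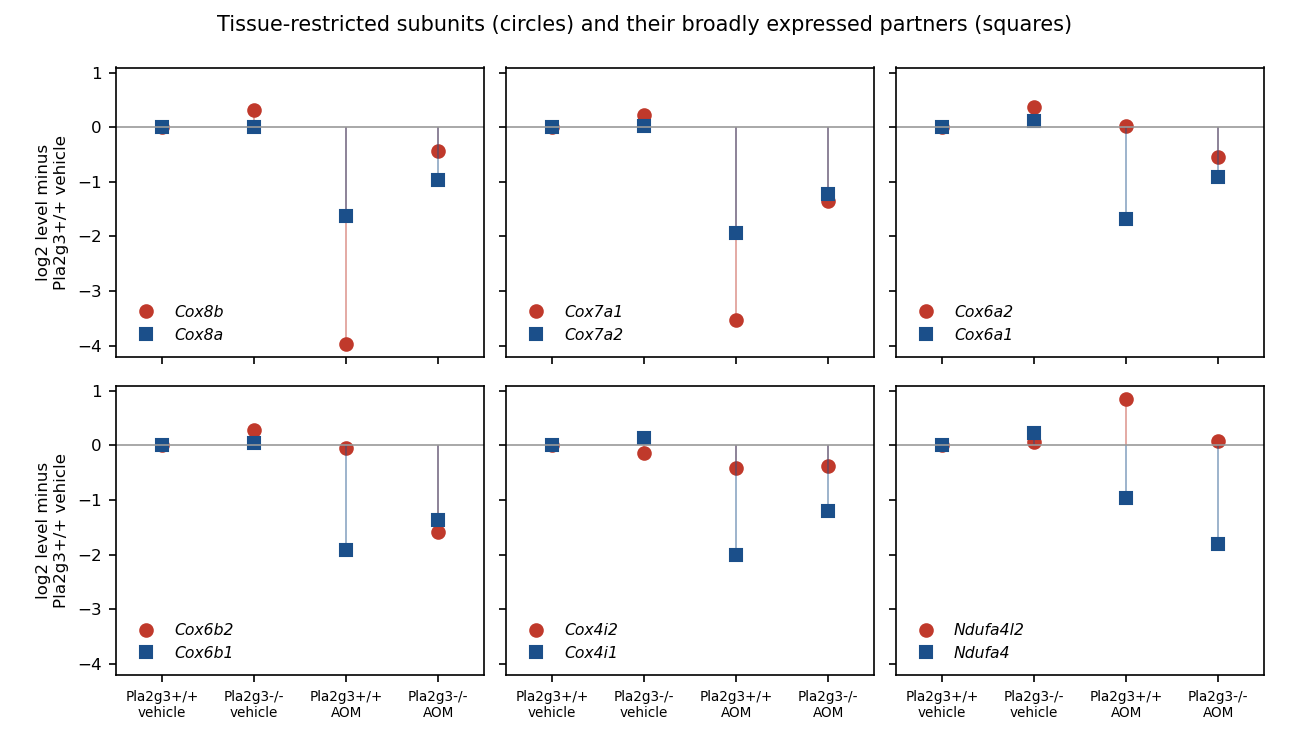
Log2 level on each array relative to the *Pla2g3*+/+ vehicle array (vertical axis) of 6 tissue-restricted subunits or paralogs and their ubiquitous partners, 1 panel per pair. *Cox8b* and *Cox7a1* lie below their partners on the *Pla2g3*+/+ AOM array (-3.96 and -3.53 against -1.62 and -1.94), whereas *Cox6a2*, *Cox6b2*, *Cox4i2* and *Ndufa4l2* lie above theirs there.

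Complex V, the ATP synthase, had 15 members, with a median genotype ratio of 0.50 after AOM and a range of -0.04 to 0.80. The brightest was the catalytic subunit *Atp5b*, with levels of 7.12, 7.30, 6.31 and 6.67. *Atp5e*, the epsilon subunit of the central stalk, had 7.66, 7.62, 5.72 and 5.68. *Atp5a1*, the other large subunit of the catalytic head, had 5.95, 6.10, 5.22 and 6.02. These subunits of the same enzyme split after AOM: *Atp5e* was 3.84-fold lower in *Pla2g3*+/+ and 3.82-fold lower in *Pla2g3*-/-, *Atp5b* 1.75-fold and 1.55-fold, and *Atp5a1* 1.65-fold and 1.06-fold. Without scaling and with quantile normalization, *Atp5a1* and *Atp5b* were above their vehicle level in both genotypes, and *Atp5e* was below it.

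The c subunit of the proton-driven rotor is made from 3 genes that encode the same mature protein. *Atp5g1* had levels of 6.77, 6.77, 5.34 and 5.69, *Atp5g2* 6.76, 6.87, 5.73 and 5.84, and *Atp5g3* 7.03, 7.21, 5.76 and 6.45. Their genotype ratios after AOM were 0.35, 0.11 and 0.69, and that of *Atp5g2* turned negative without scaling. All 3 were lower after AOM when scaled by the 75th percentile, whereas without scaling *Atp5g3* was not lower in *Pla2g3*-/-, and a second probe of *Atp5g1* gave only -0.42 and -0.12. *Atp5k*, the e subunit, had 6.54, 6.79, 4.61 and 5.18 and was among the members with the largest decrease in *Pla2g3*-/- (3.05-fold).

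Assembly factors and other proteins had medians nearer to 0 than the subunits in both kinds of comparison. The median AOM ratio of these 12 members was -0.88 in *Pla2g3*+/+ and -0.63 in *Pla2g3*-/-. Over 2-fold lower were 4 (33.3%) and 2 (16.7%), against 23.0% and 16.7% of all genes. The median genotype ratio after AOM was -0.05, with 5 above and 7 below 0. For the 79 structural subunits the corresponding medians were -1.60, -1.15 and 0.56. Most of the 12 were also dimmer than most subunits. Bright genes in general had lower AOM medians, at -0.80 and -0.63 for other genes of like level against -0.23 and -0.13 for all genes. The part of signal level in the contrast between these 12 members and the subunits was not tested. *Ndufaf6*, a complex I assembly factor, had levels of 0.66, 0.73, -0.20 and -0.75 and was 1.47-fold lower in *Pla2g3*-/- after AOM. *Ndufaf1*, which helps build the membrane arm, had 1.1, 1.28, 0.76 and 0.46, and *Ndufaf7* had 2.10, 1.85, 1.43 and 1.59. A list of 33 assembly factors of the chain whose names lie outside the rule had AOM medians of -1.18 and -0.84. Its genotype median after AOM was 0.18. Of the 32 with a value, 3 (9.38%) were over 2-fold higher and none lower, against 14.4% and 12.7% of all genes.

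**Figure D5:**
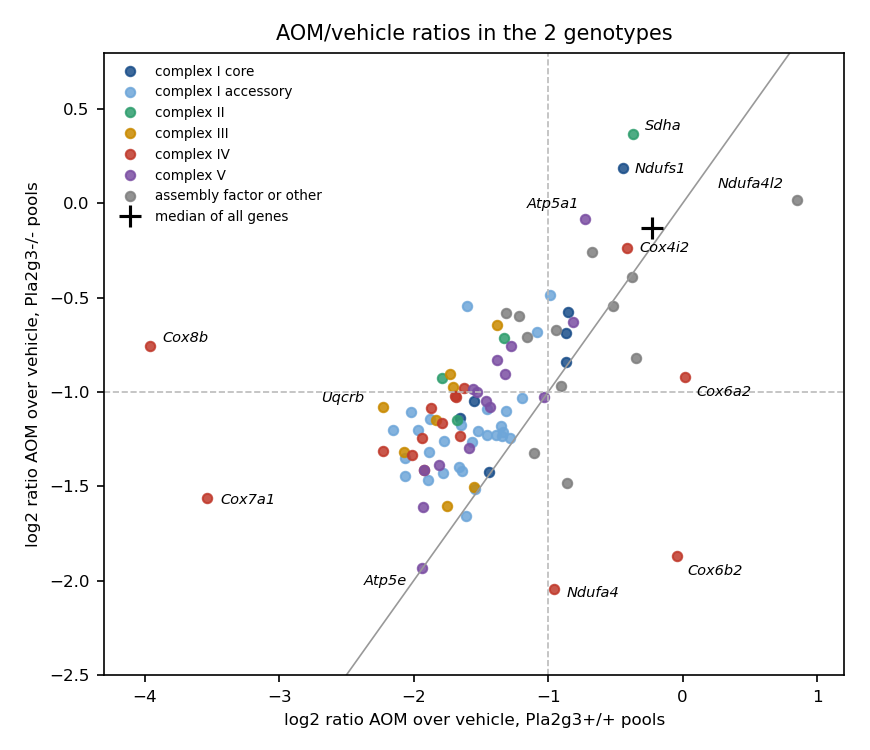
Log2 ratio of AOM to vehicle in *Pla2g3*+/+ (horizontal axis) and in *Pla2g3*-/- (vertical axis) for each member, colored by role, with the line of equality in grey, dashed lines at -1 and the median of all genes as a plus. Most points lie below -1 on both axes (55 of 91) and above the line of equality, *Cox8b* and *Cox7a1* lie far to the left, and *Cox6b2*, *Cox6a2* and *Ndufa4* lie below the line.

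Probes of the same gene bore on the reliability of single values. For 30 members with more than 1 probe, 41 further probes were available, and 37 of these had the same sign as the brightest in the genotype comparison after AOM, 41 in the AOM comparison in *Pla2g3*+/+ and 39 in *Pla2g3*-/-. With vehicle, where the ratios were small, it was 29. Within 0.25 on the log2 scale were 34, 31, 32 and 35 probes, in the same order.

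Other mitochondrial genes were described by the same counts. In the genotype comparison after AOM, 14.4% of all genes were over 2-fold higher and 12.7% lower. Electron carriers and the adenylate exchange (17 kept) had a median genotype ratio of 0.66 after AOM. Of these, 3 (17.6%) were over 2-fold higher, near the share of all genes, and none lower. They ran from *Gpd2*, glycerol phosphate dehydrogenase (-0.35), to *Ckmt1*, mitochondrial creatine kinase (1.95). Pyruvate dehydrogenase and the TCA cycle (24) had a median of 0.64, with 7 (29.2%) higher and none lower. They ran from *Pdhb* (-0.16) to *Pdk2*, a kinase that restrains pyruvate dehydrogenase (2.03). Mitochondrial ribosomal proteins (76), which translate the subunits encoded in mitochondrial DNA, had a median of -0.18, with 23 above and 53 below 0 and none past 2-fold, from *Mrps5* (-0.93) to *Mrpl14* (0.58). After AOM, the ribosomal genes were lower than vehicle by a median of -0.78 in *Pla2g3*+/+ and -0.98 in *Pla2g3*-/-, the reverse of the order seen for the structural subunits (-1.60 and -1.15). Regulators of mitochondrial transcription and biogenesis (20) had a median genotype ratio of 0.25 after AOM, with 7 (35%) over 2-fold higher and none lower. The highest was *Ppara*, a nuclear receptor of fatty acid oxidation (2.80), with signals of 753, 704, 114 and 710, and the lowest *Gabpb1* (-0.29). *Nrf1* itself, whose motif recurred in the promoters, was at -0.14. Glycolysis and lactate genes (22) had a median of 0.33, with 2 (9.09%) higher and 3 (13.6%) lower. They ran from *Slc16a3*, a lactate exporter (-1.85), to *Pfkm*, muscle phosphofructokinase (1.51).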

How the data were processed

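Colon RNA of 4 pools was hybridized to single-color (Cy3) Agilent Whole Mouse Genome arrays. The authors deposited each spot's intensity from Agilent Feature Extraction 11.5.1.1, after background subtraction and spatial detrending but with no scaling between arrays, and with 0 or 1 flags for signals above background and saturation. A second deposited table holds the ratio of intensity to the 75th percentile of the array, as checked against the arrays. Groups follow the deposited labels. Here, control spots were left out, spots of a probe were averaged, the brightest probe stood for a gene, signals were divided by the 75th percentile of the array, and log2 ratios were formed wherever at least 1 of both arrays was above background. No test was run, as each group has 1 array, and the number of arrays limits the precision.

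Members and gene lists were chosen with earlier results of these data known. Named were the 2 brightest members per complex, the 5 highest and 5 lowest per comparison, tissue isoforms with their partners, the highest and lowest gene of each pathway list, and members past 2-fold with vehicle or in opposite directions between treatments. Genes used to illustrate a complex (*Sdhc*, *Ndufv2*, *Ndufa5*, *Uqcrfs1*, *Nrf1*) were added after their values were seen, as were the roles. Alternatives were other scalings, normexp with quantile normalization (limma 3.58.1, R 4.3.3), filters, all probes, the deposited table, a 1.5-fold threshold and structural subunits alone. The other steps used Python 3.11.15 with pandas 2.3.3, numpy 2.4.6 and matplotlib 3.10.9, and the code for ratios was tested on simulated data.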

Additional observations from a re-analysis of the deposited data

Results flagged for a closer look

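For 4 members the genotype ratio (log2, *Pla2g3*-/- relative to *Pla2g3*+/+) had opposite signs with vehicle and after AOM, each by more than 2 errors of a ratio between spots. It was 0.37 and -0.58 for *Cox6a2*, 0.29 and -1.54 for *Cox6b2*, 0.23 and -0.85 for *Ndufa4*, and -0.21 and 0.85 for *Ndufa6*. For 2 members the AOM ratio had opposite signs in *Pla2g3*+/+ and *Pla2g3*-/-, at -0.45 and 0.19 for *Ndufs1* and at -0.37 and 0.37 for *Sdha*. The last 2 did not keep opposite signs without scaling, with quantile normalization or when centred on genes of like level, where both lay above 0 in *Pla2g3*+/+ too. With 1 array per group, these differences between effects were not tested.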

How the results depend on the processing

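No paired analysis was possible because each group has 1 array. No median of the members changed sign under an alternative, and the results with vehicle were within their limits. In the genotype comparison after AOM, the count of members over 2-fold higher was 2 without scaling, 3 with quantile normalization, 3 with normexp and quantile normalization and 2 when centred on genes of like level (chosen after seeing the data), and 37 at 1.5-fold, where 23.5% of all genes were higher and 21.0% lower. The count lower was 2, 2, 2 and 2 under those scalings, equal to the count higher without scaling and when centred, and 3 at 1.5-fold. Of all genes, 11.9%, 14.1%, 7.77% and 11.4% were over 2-fold higher under those scalings, and 15.1%, 13.0%, 7.22% and 15.9% lower. The members' median was 0.33, 0.35, 0.38 and 0.29, and 0.57 when scaled by the median of the array. For AOM in *Pla2g3*+/+ the count lower was 8, 26, 24 and 34 and the median -0.53, -0.83, -0.80 and -0.89, with -1.35 for the 75th percentile of probes above background on all arrays. The count higher was 2 without scaling, and 1 for that percentile, at 1.5-fold and when centred. For AOM in *Pla2g3*-/- the count lower was 3, 8, 9 and 11, the median -0.26, -0.53, -0.51 and -0.65, with -0.94 for that percentile, and the count higher was 2 without scaling. Without scaling, all genes split into 43.5% over 2-fold higher and 6.76% lower after AOM in *Pla2g3*+/+, and into 36.8% and 4.40% in *Pla2g3*-/-. Over 2-fold lower with quantile normalization, with normexp and when centred were 17.6%, 8.94% and 9.96% of all genes in *Pla2g3*+/+. In *Pla2g3*-/- these shares were 12.5%, 5.51% and 7.19%. The members' share of lower calls in *Pla2g3*-/- was thus below that of all genes without scaling and with quantile normalization. Why the scalings differ was not tested. The size of the AOM decrease in members is therefore known only within these ranges, and dim members (*Cox6a2*, *Cox4i2*, *Cox8b*, *Ndufa4l2*) rest on weak signals. Mice, pools and labeling add errors that 1 array per group cannot show.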
